A study of Arabidopsis thaliana with 12 samples.

Results

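The genes described here encode enzymes and proteins that loosen or remodel the plant cell wall: expansins, xyloglucan endotransglucosylases/hydrolases (XTH), pectin methylesterases (PME) and endoglucanases of glycoside hydrolase family 9 (GH9). They were chosen by name, as genes with a symbol of the EXPA, EXPB, EXLA, EXLB, XTH, PME or GH9A to GH9C series on a probe set annotated to a single gene. This gave 43 genes with 1 probe set each, out of 22746 probe sets in all, of which 13513 carried a single gene. They comprised 10 α-expansins (EXPA), 4 β-expansins (EXPB), 3 genes of expansin-like family A (EXLA), 1 of expansin-like family B (EXLB), 9 XTH genes, 1 PME gene and 15 GH9 genes. The RefSeq annotation lists 105 Arabidopsis genes with a symbol or synonym of these series, so the 43 are a sample of the families, and pectin methylesterases in particular were represented by PME61 alone.

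Affymetrix arrays were used to measure transcripts in above-ground parts of 8-week-old Arabidopsis thaliana plants grown at 24 °C. The 12 samples fell into 4 groups: heated msh1 recA3 double mutant (n = 3), untreated double mutant (n = 4), heated Col-0 wild type (n = 3) and untreated Col-0 wild type (n = 2). The double mutant is in the Col-0 background and lacks MSH1 and RECA3, nuclear genes whose proteins keep organelle genomes intact; neither gene was analysed here. Heat was 37 °C, for 2 h by the design text but for about 24 h by the treatment protocol. All values are log2 signals, so a difference of 1 is a 2-fold change, and a signal of one probe set cannot be set against that of another.

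A growing plant cell is enclosed by cellulose microfibrils embedded in xyloglucan and pectin, and it enlarges only as fast as that network yields to turgor. Expansins let wall polymers slip without cutting them, XTH enzymes cut and rejoin xyloglucan chains, pectin methylesterases strip methyl groups from pectin and so alter its stiffness, and GH9 endoglucanases cut glucan chains. In leaves, these genes are best known from young, expanding tissue.

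Principal component 1 (71.1% of the variance) set heated arrays apart from untreated ones. On principal component 2 (10.2%), heated double mutant replicate 3 scored 8.73 against -22.5 and -26.8 for the other heated double mutants and 13.5 to 16.3 for heated wild type. Untreated double mutant replicates 3 and 4 (-22.9 and -30.9) also stood apart from replicates 1 and 2 (-2.95 and -0.964). Some results that rest on these libraries, but not all, are given with and without them. As a check of the heat labels, the small heat shock protein gene HSP22.0 was higher by 9.09 in heated double mutants and by 9.14 in heated wild type. It was 1 of 4 heat check genes measured, and the others rose by at least 7.06 in each genotype. ROF2 and HSP17.6C-CI gave 5.80 and 5.21 in untreated double mutant replicate 4, against 4.23 to 4.81 and 4.19 to 4.24 in the other untreated double mutants. HSP23.5 was higher in the untreated double mutant than in the untreated wild type (1.08 ± 0.18, limma adjusted p = 0.0131). The leaf genes RCA and LHCB4.1, 2 of the 12 leaf markers listed, gave signals of 13.02 to 13.85 in all samples. RCA was higher by 0.46 ± 0.09 in the untreated double mutant than in the untreated wild type (adjusted p = 0.0291) and by 0.32 ± 0.10 with heat in the wild type (adjusted p = 0.0312), and LHCB4.1 was lower by -0.23 ± 0.07 with heat in the double mutant (adjusted p = 0.0173). The part of these shifts in the wall genes' differences was not tested. The pollen gene AT59, 1 of 20 pollen and flower markers listed, gave 3.5 to 3.95, while the lower quartile of an array lay between 3.67 and 3.79. No marker of dividing cells or of secondary walls in stems was measured under its own name.

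In the double mutant, 11 of the 43 genes were lower with heat (adjusted p under 0.05) and 4 were higher, where 20.2% of all probe sets were lower and 13.8% higher (34.0% called in all). The members' shares were 25.6% lower and 9.30% higher, and their median difference was -0.04 against 0.007 over all probe sets. In the wild type, 10 genes were lower and 1 was higher, or 23.3% and 2.33%, where 12.8% of all probe sets were lower and 13.7% higher (26.5% called in all); the median was -0.10 against 0.008. Heated and untreated samples did not overlap for 37.2% of the members in the double mutant and 51.2% in the wild type. Over all probe sets these shares were 38.3% and 52.4%, so a lack of overlap with heat does not set members apart. The 9 genes lower in both genotypes were the expansins EXPA4, EXPA8, EXPA15, EXPA16, EXPA20 and EXPB1, the endoglucanases GH9C2 and GH9B8, and XTH32. The share of all probe sets lower in both genotypes was not counted, so this number is not shown to be particular to the members. Whether the lower signals reflect fewer cells of an expanding type or less transcript per cell cannot be told apart in whole shoots.

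**Figure D1:**
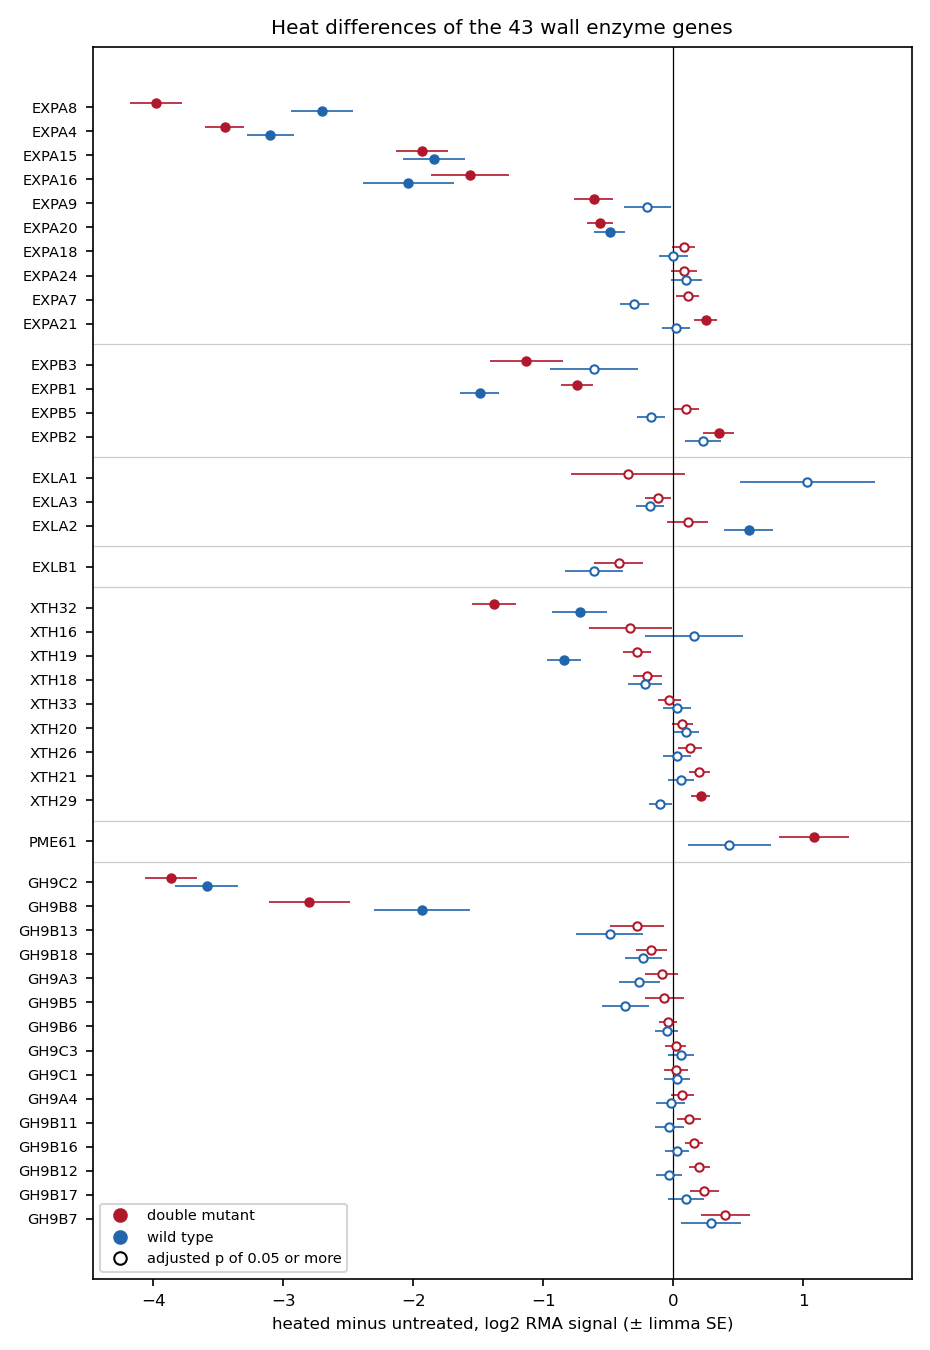
Heat difference (heated minus untreated, log2 RMA signal, x axis) of each of the 43 genes, grouped by family, in the double mutant (red) and the wild type (blue), with the limma standard error as a bar. Filled points passed an adjusted p of 0.05; the differences below -3 belong to EXPA8, EXPA4 and GH9C2, and most GH9 and XTH genes lie near 0.

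Some members were dim: 13 of the 43 genes stayed under 3.79, the highest lower quartile of any array, in all 12 samples: EXPA24, GH9A4, GH9B6, GH9B11, GH9B16, GH9B17, GH9C1, GH9C3, XTH18, XTH20, XTH21, XTH26 and XTH29. For such dim genes, of which XTH29 alone was called with heat in the fit of the values as deposited, signal was not shown to exceed background.

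Among α-expansins, the proteins that loosen walls at acid pH, 6 of 10 fell with heat in the double mutant and 5 of 10 in the wild type (60% and 50%, against 20.2% and 12.8% of all probe sets). EXPA8 (AT2G40610) gave 5.20, 5.15 and 5.87 in heated double mutants, against 9.29, 9.58, 9.40 and 9.30 in untreated double mutants. In wild type it gave 6.89, 6.32 and 6.26 after heat, against 9.0 and 9.39 without. All heated samples lay below all untreated ones, and the heated double mutants also lay below the heated wild type. EXPA8 fell 15.8-fold in the double mutant (-3.98 ± 0.20, limma SE, adjusted p = 6.05e-08) and 6.51-fold in the wild type (-2.70 ± 0.24, adjusted p = 9.37e-06).

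EXPA4 (AT2G39700), an α-expansin, gave 5.81, 5.92 and 5.92 in heated double mutants, against 9.37, 9.24, 9.70 and 9.0 in untreated ones. Heated wild type gave 5.97, 5.91 and 5.58, against 8.87 and 8.97 in untreated wild type. Heated samples of both genotypes lay between 5.58 and 5.97 and untreated ones between 8.87 and 9.70, with no overlap. Its fall was 10.9-fold in the double mutant (-3.45 ± 0.15, adjusted p = 1.51e-08) and 8.56-fold in the wild type (-3.10 ± 0.18, adjusted p = 2.49e-07).

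EXPA15 (AT2G03090) followed the same course at a smaller size. Heated double mutants gave 5.17, 5.52 and 5.29, against 7.22, 7.67, 7.45 and 6.67 in untreated double mutants. Heated wild type gave 5.60, 5.28 and 5.45, against 7.43 and 7.14 in untreated wild type. The genotypes overlapped in each condition, heated and untreated samples did not, and replicate 4 was the lowest untreated double mutant. The falls were -1.93 ± 0.20 (adjusted p = 2.43e-05) in the double mutant and -1.84 ± 0.24 (adjusted p = 0.000185) in the wild type.

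EXPA16 (AT3G55500) gave 4.32, 4.32 and 4.65 in heated double mutants, against 6.58, 6.45, 5.93 and 5.0 in untreated ones. It gave 4.67, 4.60 and 4.65 in heated wild type, against 6.67 and 6.71 in untreated wild type. The untreated double mutants were the most scattered group: all 4 lay below the untreated wild type, replicate 4 furthest, and above the heated samples. EXPA16 fell in the double mutant by -1.56 ± 0.30 (adjusted p = 0.00171) and in the wild type by -2.04 ± 0.35 (adjusted p = 0.00129). Without untreated double mutant replicates 3 and 4 the double mutant's difference was -2.08 ± 0.12, and without replicates 1 and 2 it was -1.04 ± 0.23.

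The other α-expansins moved less or were not called. EXPA20 (AT4G38210) fell by -0.56 ± 0.10 (adjusted p = 0.00117) in the double mutant and by -0.49 ± 0.12 (adjusted p = 0.0108) in the wild type, with no overlap in either; the wild type call was lost without untreated wild type replicate 2. EXPA9 (AT5G02260) fell in the double mutant (-0.61 ± 0.15, adjusted p = 0.00828) and measured -0.20 ± 0.18 in the wild type (adjusted p = 0.476). EXPA21 was called higher in the double mutant at 0.25 ± 0.09 (adjusted p = 0.0494), on signals of 3.42 to 3.83 near the lower quartile, and 15 of 19 alternatives lost that call. EXPA7 and EXPA18, expansins of root hairs, gave 3.61 to 4.13 and 3.52 to 3.95 over the 12 samples, and EXPA24 gave 3.46 to 3.77. None of these 3 genes was called with heat in the fit of the values as deposited. EXPA7 measured -0.30 ± 0.11 in the wild type (adjusted p = 0.0574), called lower with array weights, reference-gene centring, the replicate block, trend and robust moderation or without heated wild type replicate 3. In the double mutant it measured 0.11 ± 0.09 (adjusted p = 0.365), called higher with reference-gene centring (0.26, adjusted p = 0.0494).

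β-Expansins are related wall-loosening proteins, and with heat 2 of the 4 fell and 1 rose in the double mutant, against 1 that fell in the wild type. Those shares were 50% lower and 25% higher in the double mutant, where 20.2% and 13.8% of all probe sets were. In the wild type 25% were lower, against 12.8% of all probe sets. EXPB1 (AT2G20750) gave 4.75, 4.92 and 4.71 in heated double mutants, against 5.72, 5.59, 5.59 and 5.25 in untreated ones. It gave 4.96, 4.92 and 4.97 in heated wild type, against 6.24 and 6.63 in untreated wild type. Heated samples of both genotypes met at about the same signal, while the untreated wild type lay above the untreated double mutant. EXPB1 fell by -0.74 ± 0.12 (adjusted p = 0.000697) in the double mutant and by -1.49 ± 0.15 (adjusted p = 2.38e-05) in the wild type.

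EXPB3 (AT4G28250) gave 7.27, 6.83 and 7.53 in heated double mutants, against 8.65, 8.53, 8.72 and 7.43 in untreated ones. Heated wild type gave 7.76, 7.86 and 7.42, against 8.28 and 8.30 in untreated wild type. The double mutant groups overlapped through untreated replicate 4, which lay far below the other 3. The difference was -1.13 ± 0.28 (adjusted p = 0.00926) in the double mutant and -0.61 ± 0.34 (adjusted p = 0.224) in the wild type, and the double mutant call was lost without untreated replicates 1 and 2 (-0.87, adjusted p = 0.0861). Without untreated replicate 4 the double mutant's difference was -1.43 (adjusted p = 0.000121), and without replicates 3 and 4 it was -1.38 ± 0.20 (adjusted p = 0.000667). In wild type EXPB3 was called lower without untreated double mutant replicate 4 and in a fit of only the wild type groups. EXPB2 was called higher in the double mutant (0.35 ± 0.12, adjusted p = 0.0454), a call lost in 13 of 19 alternatives, and EXPB5 was not called (3.64 to 3.99).

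Expansin-like proteins share the expansin fold, and a wall-loosening activity has not been shown for them as firmly. EXLA2 (AT4G38400) was the only member called higher with heat in the wild type in the fit of all samples, with 5.51, 5.17 and 5.38 after heat, against 4.84 and 4.71 without. In double mutants it gave 4.62, 4.71 and 5.32 after heat, against 4.95, 4.73, 4.74 and 4.68 without, so that only heated replicate 3 lay above the untreated range. Its differences were 0.11 ± 0.16 (adjusted p = 0.647) in the double mutant and 0.58 ± 0.19 (adjusted p = 0.0401) in the wild type, and the wild type call was lost with the replicate block and in 6 fits that left out 1 sample (adjusted p up to 0.19).

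EXLA1 (AT3G45970) varied widely between replicates. Heated double mutants gave 5.84, 4.69 and 6.08, against 6.99, 5.13, 5.25 and 6.17 in untreated ones. Heated wild type gave 6.79, 6.42 and 6.38, against 5.76 and 5.24 in untreated wild type. The wild type groups did not overlap, yet the difference of 1.03 ± 0.52 did not pass the test (adjusted p = 0.181), and that of the double mutant was -0.35 ± 0.44 (adjusted p = 0.588). A fit of only the wild type groups called EXLA1 higher. Its neighbour on the chromosome, EXLA3, gave 3.53 to 3.91 and was not called. EXLB1 (AT4G17030) measured -0.42 ± 0.19 with heat in the double mutant (adjusted p = 0.106) and -0.61 ± 0.22 in the wild type (adjusted p = 0.0654). In wild type it was called lower in a fit of only the wild type groups, with reference-gene centring and with a filter on dim probe sets. The same call came without untreated double mutant replicate 1 or 2. In the double mutant EXLB1 was called lower without untreated replicate 2 and without replicates 1 and 2.

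Of the 9 XTH genes, 1 fell and 1 rose with heat in the double mutant, and 2 fell in the wild type. The double mutant's 11.1% in each direction lay under the 20.2% lower and 13.8% higher of all probe sets, and the wild type's 22.2% lower stood against 12.8%. XTH32 (AT2G36870), a xyloglucan-modifying enzyme gene, gave 8.18, 7.64 and 8.29 in heated double mutants, against 9.59, 9.60, 9.36 and 9.10 in untreated ones. It gave 9.11, 9.07 and 9.08 in heated wild type, against 9.56 and 10.05 in untreated wild type. Heated samples lay below untreated ones in each genotype, and the heated double mutants lay about 1 log2 unit below the heated wild type. The fall was -1.38 ± 0.17 (adjusted p = 0.000104) in the double mutant and -0.72 ± 0.21 (adjusted p = 0.0247) in the wild type, where the call was lost without any 1 of the heated wild type samples or without untreated wild type replicate 2 (adjusted p up to 0.231).

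XTH19 (AT4G30290) gave 3.30, 3.33 and 3.36 in heated wild type, against 4.00 and 4.34 in untreated wild type, a measured difference of -0.84 ± 0.13 (adjusted p = 0.000558). In double mutants it gave 3.39, 3.38 and 3.55 after heat, against 3.89, 3.78, 3.69 and 3.52 without (-0.28 ± 0.11, adjusted p = 0.0608). There XTH19 was called lower with array weights, quantile normalization, the replicate block, trend and robust moderation and some fits that left out samples. Its heated signals lay below the lower quartile of the arrays in both genotypes, so those levels were not shown to exceed background and the full size of the fall in the wild type is not known. The adjacent gene XTH18 gave 3.13 to 3.69 and was not called. XTH29 was called higher in the double mutant by 0.21 ± 0.07 (adjusted p = 0.0448) on signals of 3.30 to 3.68, and 15 of 19 alternatives lost the call. XTH16 spread from 4.27 to 6.04 with overlap in every comparison, and XTH20, XTH21, XTH26 and XTH33 were not called in the fit of the values as deposited. With reference-gene centring XTH20, XTH21 and XTH26 were called higher with heat in the double mutant. XTH21 was also called there with trend and robust moderation and without untreated double mutant replicate 3.

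PME61 (AT3G59010), a pectin methylesterase gene, was higher with heat in the double mutant. It gave 7.11, 6.81 and 6.21 in heated double mutants, against 6.40, 5.48, 5.19 and 5.42 in untreated ones. Heated wild type gave 7.60, 7.42 and 7.40, against 7.06 and 7.01 in untreated wild type. The double mutant groups overlapped through untreated replicate 1 and heated replicate 3. The rise was 1.08 ± 0.27 in the double mutant (adjusted p = 0.00825), against 0.43 ± 0.32 in the wild type (adjusted p = 0.377). A fit of only the wild type groups called PME61 higher in wild type. Without untreated double mutant replicates 3 and 4 the double mutant's rise was 0.77 ± 0.29 (adjusted p = 0.0755).

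Of the 15 GH9 endoglucanase genes, 2 fell with heat in each genotype and none rose. That 13.3% is close to or under the 20.2% (double mutant) and 12.8% (wild type) of all probe sets that were lower. GH9C2 (AT1G64390), of the class whose proteins carry a carbohydrate-binding module, gave 5.26, 5.21 and 4.79 in heated double mutants, against 9.18, 9.18, 9.04 and 8.40 in untreated ones. It gave 5.47, 5.62 and 5.11 in heated wild type, against 9.0 and 8.98 in untreated wild type. More than 3 log2 units separated the highest heated from the lowest untreated sample in each genotype. The fall was 14.6-fold in the double mutant (-3.86 ± 0.20, adjusted p = 7.19e-08) and 12.1-fold in the wild type (-3.59 ± 0.24, adjusted p = 8.42e-07).

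GH9B8 (AT2G32990), an endoglucanase of class B, gave 4.69, 4.73 and 4.57 in heated double mutants, against 7.27, 7.78, 8.11 and 6.69 in untreated ones. Heated wild type gave 5.25, 4.76 and 4.21, against 6.89 and 6.46 in untreated wild type. The groups did not overlap in either genotype, and the fall was -2.80 ± 0.31 (adjusted p = 3.86e-05) in the double mutant and -1.93 ± 0.37 (adjusted p = 0.00261) in the wild type. GH9B7 (AT1G75680), another class B gene, gave 9.48, 9.11 and 8.49 in heated double mutants, against 8.51, 8.53, 8.76 and 8.70 in untreated ones (0.40 ± 0.19, adjusted p = 0.132). Without heated double mutant replicate 3, the lowest of its group, GH9B7 was called higher (0.67 ± 0.14, adjusted p = 0.00357). Array weights and reference-gene centring also called GH9B7 higher in the double mutant. In wild type its difference was 0.29 ± 0.23 (adjusted p = 0.408). GH9B13 (5.60 to 6.59), GH9A3 (4.34 to 5.06) and GH9B18 (4.04 to 4.65) measured -0.28, -0.09 and -0.17 in the double mutant and -0.49, -0.26 and -0.23 in the wild type, none past the test in the fit of the values as deposited. GH9B13 was called lower in the double mutant without untreated replicates 3 and 4 (-0.62, adjusted p = 0.0324), and GH9A3 was called in the wild type without heated wild type replicate 3.

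**Figure D2:**
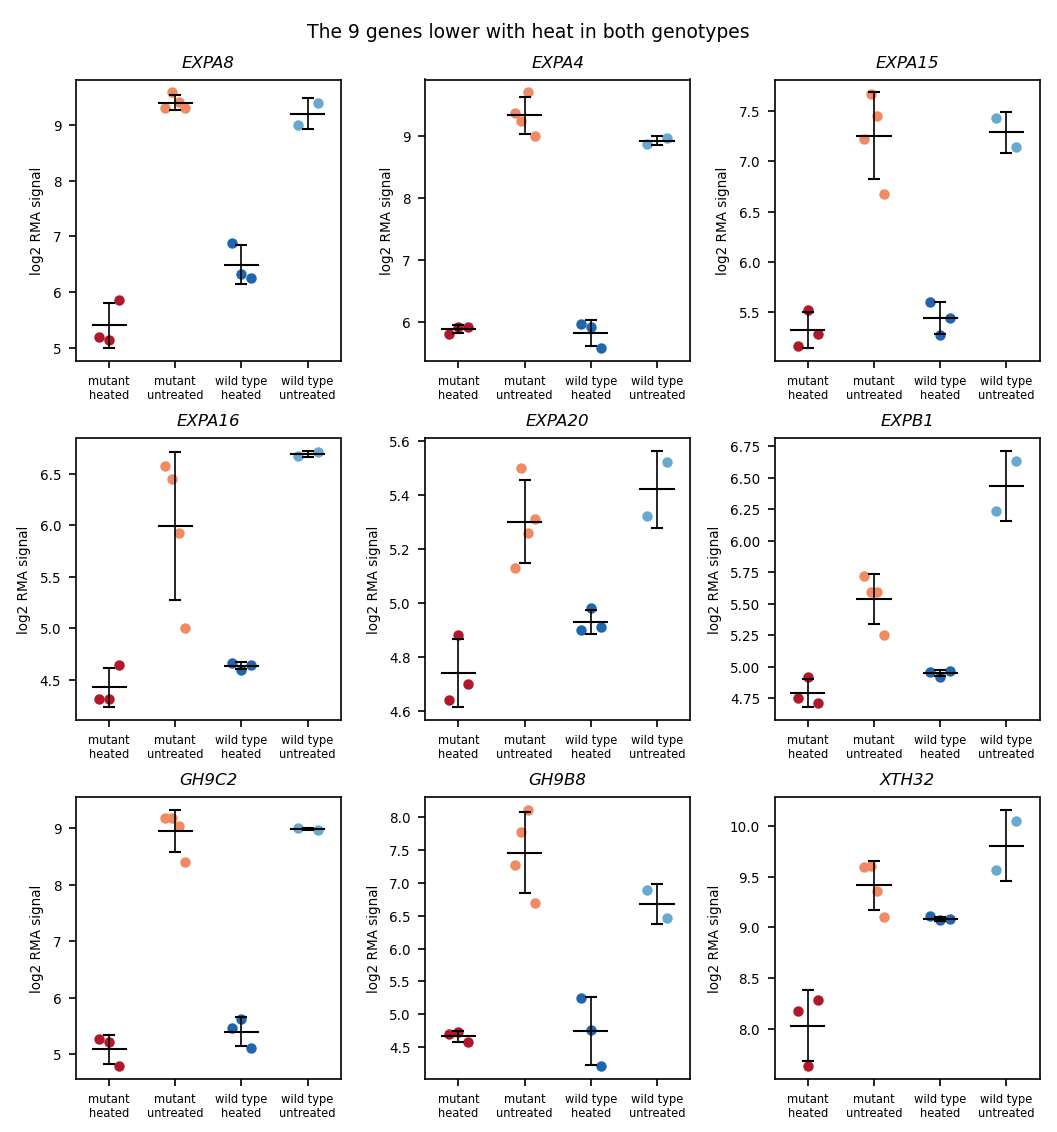
Signal of the 9 genes called lower with heat in both genotypes (y axis, log2 RMA signal), with each array as a point, the group mean as a line and the SD as a bar, for heated and untreated double mutants (n = 3 and 4) and heated and untreated wild type (n = 3 and 2). Heated points lie below untreated points in each panel and genotype. Over all probe sets, heated and untreated samples did not overlap for 38.3% in the double mutant and 52.4% in the wild type. The share of all probe sets called lower in both genotypes was not counted. In GH9C2 the heated double mutants reach 5.26 at most, and untreated ones 8.40 at least.

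Untreated double mutant replicate 4 was often the lowest of its group. Of the 11 members lower with heat in the double mutant, 8 had their lowest untreated value in replicate 4, against 18 of all 43. How often replicate 4 was lowest over all probe sets was not counted, so this position is not shown to be particular to the wall genes. Fits that left out 1 sample called 11 or 12 members lower with heat in the double mutant and 8 to 11 in the wild type. The number of members higher in the double mutant ran from 0 to 13 over the alternatives. The 13 came from centring the arrays on 4 reference genes, which shifted the median of all probe sets by 0.15 and gave 6385 higher and 3264 lower probe sets, against 3140 and 4585 as deposited. With quantile normalization 2 members were higher and 12 lower.

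Genes that make the wall were also measured. Of 36 measured genes of wall polysaccharide synthesis, 18 fell and 1 rose in the heated double mutant (median -0.51), and 12 fell and none rose in the heated wild type (median -0.24). The lower shares were 50% in the double mutant and 33.3% in the wild type, where 20.2% and 12.8% of all probe sets were lower. Most of the 36 carried TBL (trichome birefringence-like) symbols, so these shares are not those of the polysaccharide synthases alone. In the double mutant TBL41 was the 1 that rose (0.83 ± 0.16). There TBL37 was among those that fell (-1.27 ± 0.20), and TBL43 among those not called (0.25 ± 0.11). CSLC5, a glucan synthase for the xyloglucan backbone, gave 4.22, 3.91 and 4.27 in heated double mutants, against 6.14, 6.30, 6.17 and 6.10 in untreated ones, a fall of -2.04 ± 0.10 (adjusted p = 3.92e-08). In wild type it gave 4.44, 4.47 and 4.33 after heat, against 6.07 and 6.2 without (-1.72 ± 0.12, adjusted p = 1.07e-06). Heated and untreated samples did not overlap for CSLC5 in either genotype.

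CSLC04, of the same xyloglucan synthase family, fell by -1.68 ± 0.17 in the double mutant and by -1.38 ± 0.20 in the wild type. IRX15-L, needed for xylan synthesis, fell by -1.69 ± 0.27 and -1.10 ± 0.33 in double mutant and wild type. CSLD2, a cellulose synthase-like gene best known from root hairs, fell by -1.06 ± 0.17 in the double mutant and by -1.29 ± 0.21 in the wild type. COB, a membrane-anchored protein that orients cellulose deposition, fell by -1.37 ± 0.12 in the double mutant and by -0.81 ± 0.15 in the wild type. The xyloglucan synthase gene ATCSLC08 fell in the double mutant (-0.85 ± 0.12) and measured -0.22 ± 0.14 in the wild type. The other two genes of that family, named after their values were seen, were CSLC6, which fell by -0.84 ± 0.13 and -0.68 ± 0.16 in double mutant and wild type, and CSLC12, which was not called (3.04 to 3.56).

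Some relatives and partners carry other symbols. Among 6 genes of the same families under another name, 2 fell in the heated double mutant and 1 in the heated wild type. These are 33.3% and 16.7%, where 20.2% and 12.8% of all probe sets were lower. The pectin methylesterase gene ATPMEPCRB gave 3.43, 3.24 and 3.38 in heated double mutants, against 5.44, 5.18, 4.65 and 5.31 in untreated ones (-1.80 ± 0.18, adjusted p = 1.42e-05). In wild type it fell by -1.61 ± 0.21 (adjusted p = 0.000176), to signals of 3.12 to 3.25; its heated signals in both genotypes lie under the lower quartile, so the full size of these falls is not known. PMEPCRF, also a pectin methylesterase gene, fell in the double mutant alone by call (-0.60 ± 0.08, against -0.22 ± 0.10 in the wild type), and the difference of these responses was not called. By call, pectin methylesterase transcripts did not share a direction in heated double mutants. PME61 was higher, ATPMEPCRB and PMEPCRF were lower, and ATPMEPCRD was not called (0.01 ± 0.07). The rest of the 6 genes were not called there either: AT4G02300 (0.11 ± 0.10), AT4G30380 (-0.01 ± 0.07) and EXGT-A3 (-0.42 ± 0.17). The higher direction rests on PME61, whose groups overlapped and whose call was lost without untreated double mutant replicates 3 and 4.

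Other wall genes rose or were not called. The β-galactosidase gene BGAL16 gave 5.88, 5.73 and 5.65 in heated double mutants, against 3.76, 3.79, 3.91 and 3.99 in untreated ones, a rise of 1.89 ± 0.12, and it rose by 1.88 ± 0.14 in the wild type. Its untreated signals, 3.83 and 4.20 in wild type, lay near the lower quartile, so the full size of these rises is not known. ADPG1, the other measured wall hydrolase gene of that list, was not called (-0.31 ± 0.28 in the double mutant and -0.68 ± 0.33 in the wild type). FER, the receptor kinase FERONIA that senses wall state, rose in the heated wild type (0.59 ± 0.15, adjusted p = 0.0139) and measured 0.13 ± 0.13 in the double mutant. THE1, the receptor kinase THESEUS1, was not called in either. Of 11 measured auxin genes, for YUC synthesis enzymes and IAA response proteins, none was called with heat by limma in either genotype. Over all probe sets 34.0% and 26.5% were called, but 6 of the 11 auxin genes had a mean under 3.79, so their lack of calls does not show that they were unaffected.

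**Figure D3:**
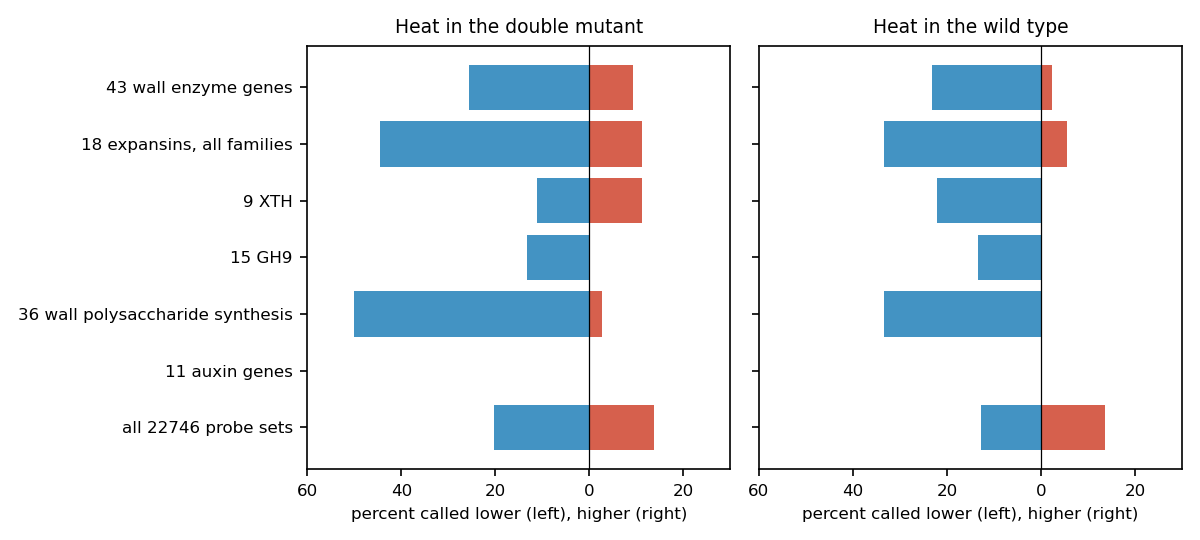
Percent of genes called lower (blue, left of 0) and higher (red, right of 0) with heat at an adjusted p of 0.05, for gene groups (y axis) in the double mutant and in the wild type. Lower calls reach 44.4% of the 18 expansins and 50% of the 36 synthesis genes in the double mutant, against 20.2% of all 22746 probe sets. Most of the 36 carry TBL symbols.

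Without heat, the double mutant was lower than the wild type for 3 of the 43 genes and higher for 0, where 0.466% of all probe sets were lower and 2.23% higher (2.69% called in all). PME61 gave 6.40, 5.48, 5.19 and 5.42 in untreated double mutants, against 7.06 and 7.01 in untreated wild type, a difference of -1.41 ± 0.30 (adjusted p = 0.035). EXLB1 gave 6.92, 5.93, 6.40 and 6.31 in untreated double mutants, against 7.34 and 7.26 in untreated wild type (-0.91 ± 0.21, adjusted p = 0.0472). EXPB1 was lower by -0.90 ± 0.14 (adjusted p = 0.00949), on the values given above. The 2 groups did not overlap for any of the 3 genes, which with 4 and 2 samples also held for 29.5% of all probe sets and 27.9% of the members.

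None of these 3 calls held in every alternative: PME61 lost it in 10 of 20, EXLB1 in 13 and EXPB1 in 2. Without untreated double mutant replicates 3 and 4, PME61 was -1.10 ± 0.32 (adjusted p = 0.202), EXLB1 -0.87 ± 0.26 (adjusted p = 0.218) and EXPB1 -0.78 ± 0.14 (adjusted p = 0.0484). Without replicates 1 and 2 the differences were -1.73 ± 0.24, -0.94 ± 0.14 and -1.02 ± 0.16, all called, and 5 members were called lower. The 2 added in that fit were EXPA16 (-1.22 ± 0.25, adjusted p = 0.0235) and XTH19 (-0.56 ± 0.13, adjusted p = 0.0396). The EXPB1 call was lost without untreated wild type replicate 2, and a fit of only the 2 groups compared called none of the 3. The root and hypocotyl gene PYK10, 1 of 3 measured root markers, moved with these groups: it gave 7.47, 8.69, 8.88 and 8.24 in untreated double mutants, against 6.82 and 6.38 in untreated wild type (1.72 ± 0.33, adjusted p = 0.0234). With heat PYK10 fell in the double mutant (-1.73 ± 0.29, adjusted p = 0.000699) and measured -0.33 ± 0.34 in the wild type (adjusted p = 0.548). Of the other root markers, EXPA7 measured -0.38 ± 0.10 in the same untreated comparison (adjusted p = 0.0694, no overlap) and EXPA18 -0.11 ± 0.11, both on signals between 3.52 and 4.13. EXPA7 was called lower there with reference-gene centring and without heated wild type replicate 3. The part of PYK10-expressing tissue in the wall enzymes' differences was not tested.

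After heat, the double mutant was lower than the wild type for 2 of the 43 genes and higher for 0, where 0.400% of all probe sets were lower and 0.497% higher (0.897% called in all). EXPA8 was 2.12-fold lower in heated double mutants (-1.08 ± 0.21, adjusted p = 0.0416), although the genotypes did not differ past the test without heat (0.20 ± 0.23, adjusted p = 0.702). XTH32 was 2.07-fold lower (-1.05 ± 0.19, adjusted p = 0.0267), against -0.39 ± 0.20 without heat (adjusted p = 0.317). Both comparisons were without overlap. Heated double mutant replicate 3 was the closest of its group to the wild type for both genes, and without it the differences were -1.32 ± 0.19 for EXPA8 and -1.17 ± 0.20 for XTH32. Of 18 alternatives, 12 lost the EXPA8 call (adjusted p up to 0.19) and 6 the XTH32 call (up to 0.127). Both were lost with the replicate block and without heated double mutant replicate 1 or 2 or any 1 heated wild type sample, and a fit of only the heated groups called neither.

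EXLA2, EXLB1 and PME61 were also lower in heated double mutants without passing the test, at -0.47 ± 0.17 (adjusted p = 0.257), -0.72 ± 0.20 (adjusted p = 0.14) and -0.76 ± 0.28 (adjusted p = 0.285). EXLB1 was called lower there in the fit without untreated double mutant replicate 1. EXLA1 (-1.0 ± 0.47, adjusted p = 0.423) and XTH16 (-0.84 ± 0.34, adjusted p = 0.33) were lower by more, also without passing. For EXLA1, EXLB1 and PME61 the genotypes did not overlap after heat, as held for 15.1% of all probe sets. EXLA2 was called lower without heated double mutant replicate 3 (-0.69 ± 0.12, adjusted p = 0.0122), the heated double mutant whose 5.32 lay within the heated wild type's range.

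**Figure D4:**
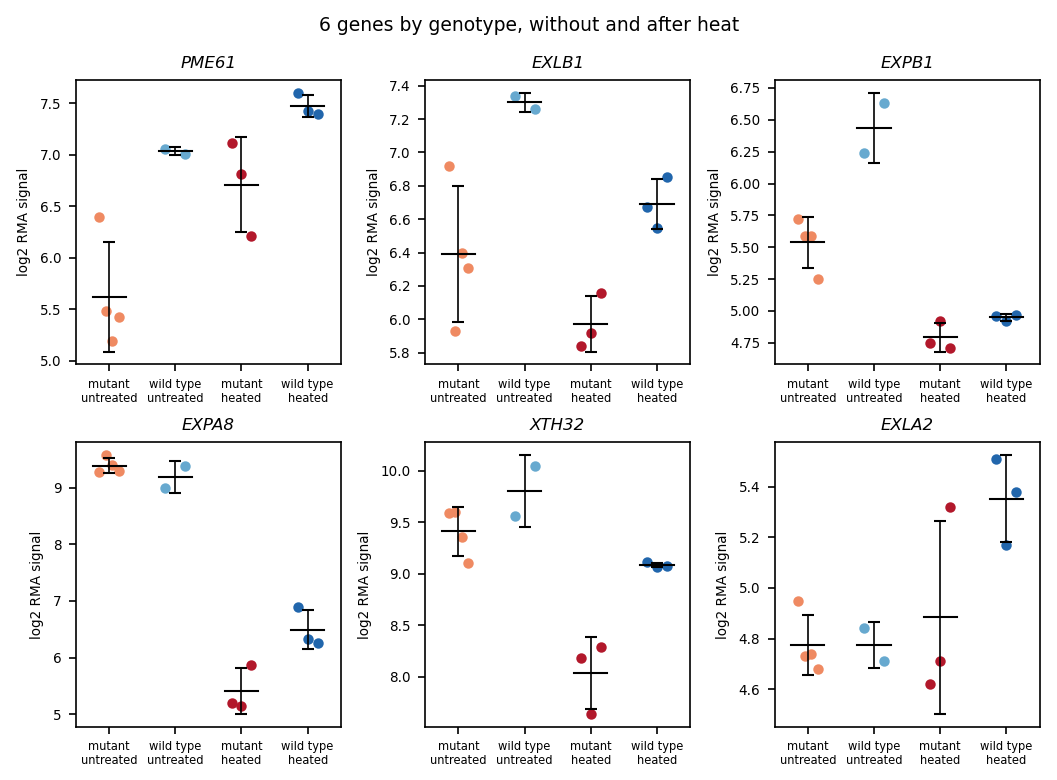
Signal (y axis, log2 RMA signal) of 6 genes in untreated double mutants (n = 4) and wild type (n = 2) and in heated double mutants (n = 3) and wild type (n = 3), with each array as a point, the group mean as a line and the SD as a bar. PME61, EXLB1 and EXPB1 are the 3 genes called lower in the untreated double mutant, EXPA8 and XTH32 the 2 called lower in the heated one, and EXLA2 depends on heated double mutant replicate 3.

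The heat responses of the genotypes were compared directly as the difference of the 2 heat differences. None of the 43 genes passed this test in limma, where 0.0747% of all probe sets did (0.0220% higher and 0.0528% lower). EXPA8, with the lower heat difference in the double mutant, measured -1.28 ± 0.31 (adjusted p = 0.226), and EXPB1, with the lower one in the wild type, 0.74 ± 0.19 (adjusted p = 0.248). XTH32 measured -0.65 ± 0.27 (adjusted p = 0.429), PME61 0.65 ± 0.42 (adjusted p = 0.627) and GH9C2 -0.27 ± 0.31 (adjusted p = 0.8). Without heated double mutant replicate 3 the EXPA8 difference was -1.51 ± 0.26 and was called (adjusted p = 0.0466), the single member call of this comparison in the fits that left out 1 sample.

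Several members lie side by side on their chromosomes in the RefSeq annotation, and in the fit of the values as deposited no adjacent pair was called together with heat. Each adjacent pair held at least 1 gene with a mean signal under 3.79, the highest lower quartile of any array. These dim genes were EXLA3, XTH18, GH9B11, GH9B12, GH9B16 and GH9B17. The lack of joint calls in that fit therefore does not show that neighbours respond differently. XTH19 fell in the heated wild type while XTH18 measured -0.22, and EXLA1 measured 1.03 beside -0.18 for EXLA3. GH9B11 and GH9B12, and the run of GH9B16, GH9B17 and GH9B18, held no called gene in that fit. With reference-gene centring GH9B11, GH9B12, GH9B16 and GH9B17 were called higher with heat in the double mutant, and GH9B12 also with array weights and without heated double mutant replicate 3 (0.27, adjusted p = 0.0353). Over the 12 samples, 9 of all 43 members spanned 2 or more log2 units while 17 spanned under 0.5.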

How the data were processed

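The authors deposited log2 signals per probe set, made with RMA from the affy package per the submitters' processing notes; versions are not given in the sources used here. RMA corrects background, normalizes quantiles across arrays and summarises probes, so low signals are compressed towards a floor. Affymetrix controls (64 of 22810 probe sets) were removed. A limma fit with 1 mean per group used all 12 samples (8 residual degrees of freedom), so that untreated wild type, with 2 samples, borrowed its spread from all groups. Tests were moderated, two-sided and adjusted by Benjamini-Hochberg over all 22746 probe sets at 0.05; the number of arrays limits the precision. The labels call the samples biological replicates and do not say whether plants were pooled. No 2 arrays held the same values.

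Members and gene lists were chosen with earlier results of these data known. No member had a second single-gene probe set. All 43 matched a RefSeq locus (TAIR10.1), used for names and neighbours only, and functions are general knowledge. Genes were named if they led a comparison or family by size, signal or p, or were among the up to 3 largest called genes of another wall list. The symbol search for wall structural proteins returned no wall gene. Protein and promoter sequences were not used here. Alternatives were other scalings, a filter on dim probe sets, a replicate block, weights per array, robust moderation with a trend, a size of at least 1, a fit of only the groups compared and leaving out each sample; leaving out untreated double mutant replicates in twos was chosen after seeing the data. The procedure was tested on simulated data. The fits ran in limma 3.58.1 under R 4.3.3, and tables and plots were made in Python 3.11.15 with NumPy 2.4.6, pandas 2.3.3 and matplotlib 3.10.9.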

Additional observations from a re-analysis of the deposited data

Results flagged for a closer look

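The β-expansin gene EXPB3 had a sample far from its group: untreated double mutant replicate 4 gave 7.43 and the other 3 untreated double mutants 8.53 to 8.72, so that the gap to the nearest was 0.849 of the group's range. This group of 4 was the only one large enough for such a test, which was made once for each of the 43 genes, and chance marks about 1 in 20 groups.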

How the results depend on the processing

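No call of a member changed direction under any alternative. With heat, 10 of 15 member calls in the double mutant and 8 of 11 in the wild type held in every alternative run per gene; between genotypes none of 3 (untreated) and none of 2 (heated) did. Members higher with heat in the double mutant numbered 2 with quantile normalization, 13 with reference-gene centring, 1 each with the brighter 0.5 of probe sets, the replicate block, only the groups compared, a size of at least 1 and without untreated double mutant replicates 1 and 2, and 0 without replicates 3 and 4, against 4; in the wild type they numbered 3 with only the groups compared and 0 with the brighter 0.5, the block and the size, against 1. Members lower in the untreated double mutant than in wild type numbered 5 with reference-gene centring and without replicates 1 and 2, 1 with the size and without replicates 3 and 4, and 0 with the block and only the groups compared, against 3. Members lower in the heated double mutant numbered 0 with the block and only the groups compared, against 2.

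Over all probe sets, a size of at least 1 left 2154 calls with heat in the double mutant and 2228 in the wild type, against 7725 and 6027. For the untreated genotypes, calls numbered 275 with quantile normalization, 109 with the block and with only the groups compared, 159 with the size, 132 without untreated double mutant replicates 3 and 4 and 1469 without 1 and 2, against 613. For the heated genotypes they numbered 102 with the block, 683 with array weights, 33 with only the groups compared and 88 with the size, against 204. For the difference of heat responses they numbered 9 with quantile normalization, 10 with reference-gene centring, 7 with the brighter 0.5, 5 with the block, 34 with array weights, 2 without replicates 3 and 4 and 55 without 1 and 2, against 17. The cause of these moves was not tested.

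Leaving out 1 sample at a time gave 11 to 12 members lower and 1 to 3 higher with heat in the double mutant, 8 to 11 lower and 0 to 1 higher in the wild type, 0 to 3 lower in the untreated and 0 to 3 in the heated genotype comparison, and 0 to 1 for the difference of responses. All calls ran from 6552 to 7624, 3912 to 6528, 113 to 862, 38 to 1061 and 1 to 66 in the same order of comparisons.

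Reference-gene centring gave 162 higher and 368 lower probe sets between untreated genotypes, against 507 and 106 as deposited, and 165 and 110 with quantile normalization. SAND, 1 of the 4 reference genes, itself fell by 0.71 and 0.43 with heat in double mutant and wild type. The reference genes EXP (AT4G26410) and TIP41L were called higher with heat in the wild type (0.29 ± 0.09 and 0.32 ± 0.10, limma adjusted p = 0.0431 and 0.0388). UBC21 was not called with heat. The replicate numbers of the labels were not taken as pairs, since residuals of same-numbered samples correlated at -0.348 to 0.265, with 3 of 15 above 0.1. Averaging the probe sets of a gene gave no value, since each had 1. The brighter 0.5 was taken by the mean over all samples, so genes low after heat can enter it through their untreated signal, and counts in it support nothing about the members. The 13 dim members lie near background, which limits what a missing call shows.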
